A study of Mus musculus with 2 samples.

Results

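The genes described here are 31 genes of cholesterol synthesis and its control, out of 31053 genes measured. They were chosen by their role in the pathway, with the difference between injured and uninjured oligodendrocytes in these data already known, so that difference is given as a description of the libraries. The set holds 8 enzymes that make mevalonate and its isoprenoid products, 11 enzymes that turn these into sterols, 7 regulators of the SREBP transcription factors, and 5 genes of sterol transport and storage. The levels come from scRNA-seq of the optic nerves of 129S1/SvlmJ wild-type mice of both sexes, pooled. The libraries were 1 per condition, the injured from the injury site of 5 nerves at 2 weeks after optic nerve crush (ONC), and the uninjured from 5 uninjured nerves. Crush was done at 8 weeks of age and the nerves were taken at 10 weeks, while the labels state P56. The labels of the uninjured sample also carry the time of 2 weeks after crush, and that sample was taken as uninjured from its title.

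Oligodendrocytes wrap axons in myelin, a membrane rich in cholesterol. Because little cholesterol crosses from the blood into the CNS, these cells make most of their own, from acetyl-CoA through mevalonate, farnesyl diphosphate, squalene and lanosterol. The transcription factor SREBP-2, encoded by Srebf2, drives the genes of these enzymes when sterols in the endoplasmic reticulum are low. It is escorted by SCAP to the Golgi and cut free there by the proteases encoded by Mbtps1 and Mbtps2, while the INSIG proteins hold it back when sterols are plentiful.

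The barcodes carry the types deposited by the authors. Uninjured nerves gave 58 OPC (oligodendrocyte precursor cell), 44 NFO (newly formed oligodendrocyte) and 857 oligodendrocyte barcodes, and injured nerves gave 17, 100 and 293. No barcode sequence was shared between the libraries. OPC markers were 456-fold higher in OPCs than in oligodendrocytes of the uninjured library, and oligodendrocyte markers were at 0.123 of the oligodendrocyte level in uninjured NFOs. The median depth was 3060 UMIs (unique molecular identifiers, each 1 RNA molecule counted) in uninjured and 1268 UMIs in injured oligodendrocytes. Of the injured oligodendrocyte barcodes, 45.4% held under 0.5% of their UMIs from the nuclear RNA Malat1, against 5.6% of the uninjured ones. The 12 macrophage and microglia markers were all found in both libraries' oligodendrocytes, and their summed level was 27.5 CPM (UMIs of the genes per 1000000 UMIs) in uninjured and 288 CPM in injured oligodendrocytes. Their part in the results below was not tested, and values from barcodes free of them are given beside the genes concerned. Levels below are CPM of the UMIs summed over a type, with exact 95% Poisson intervals, and ratios carry exact 95% intervals. With 1 library per condition there is no replicate check, these intervals cover counting error only, and no p-values are given.

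The control regions of the pathway genes are shown first, since the members share a known regulator. RefSeq (GRCm38.p6) gave promoters, from 250 bases before to 50 bases after the start, for 26 of the 31 genes. The bases just before the start are printed below for the 4 genes of lowest injured to uninjured ratio in oligodendrocytes whose window lay clear of the GENCODE gene, and for Soat1, the gene of highest ratio. The windows are chr13:119690151-119690350 (plus strand) for Hmgcs1, chr8:122443423-122443622 (minus strand) for Mvd, chr9:42264301-42264500 (minus strand) for Sc5d, chrX:72918321-72918520 (plus strand) for Nsdhl and chr1:156474329-156474528 (minus strand) for Soat1. Each is written 5′ to 3′ on the gene's strand, with its last base next to the start. Capitals mark the sterol-response-type motif TCACNCCAC, the NF-Y box CCAAT, which reads ATTGG on the other strand, and the E-box CACGTG.
Hmgcs1: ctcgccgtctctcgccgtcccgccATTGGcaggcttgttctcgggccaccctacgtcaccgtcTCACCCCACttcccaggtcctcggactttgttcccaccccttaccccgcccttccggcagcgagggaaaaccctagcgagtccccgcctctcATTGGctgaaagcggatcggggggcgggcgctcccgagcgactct
Mvd: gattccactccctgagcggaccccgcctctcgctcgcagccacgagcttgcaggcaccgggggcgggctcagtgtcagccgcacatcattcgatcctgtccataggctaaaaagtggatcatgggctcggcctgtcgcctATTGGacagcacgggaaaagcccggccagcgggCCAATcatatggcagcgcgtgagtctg
Sc5d: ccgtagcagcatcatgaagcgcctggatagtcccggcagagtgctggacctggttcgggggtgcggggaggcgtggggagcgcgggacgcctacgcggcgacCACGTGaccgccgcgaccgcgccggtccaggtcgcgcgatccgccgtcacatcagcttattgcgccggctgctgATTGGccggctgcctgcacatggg
Nsdhl: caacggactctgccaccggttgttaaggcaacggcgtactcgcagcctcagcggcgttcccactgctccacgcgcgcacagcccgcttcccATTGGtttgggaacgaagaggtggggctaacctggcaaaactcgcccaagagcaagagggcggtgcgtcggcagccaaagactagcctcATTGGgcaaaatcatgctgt
Soat1: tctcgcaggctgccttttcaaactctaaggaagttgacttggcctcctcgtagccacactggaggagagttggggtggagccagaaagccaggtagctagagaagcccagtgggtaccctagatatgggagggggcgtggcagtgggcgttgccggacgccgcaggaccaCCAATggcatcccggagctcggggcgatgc

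In these 5 windows, CCAAT lay within 45 bases of the start in each gene, on either strand. Over the whole promoter, CCAAT was found in 21 of the 26 promoters (80.8%), against 37.9% of 27025 promoters in the table and 39% of the 6839 promoters of genes with at least 50 UMIs in oligodendrocytes. The enzymes held it in 14 of 16 promoters (87.5%). It lay in 14 of 17 promoters (82.4%) of the genes that were at least 2-fold lower in injured oligodendrocytes and in 7 of 9 (77.8%) of the others. TCACNCCAC lay in 1 member promoter, that of Hmgcs1, 137 bases before the start, and in 1.22% of all promoters. CACGTG lay in 4 of 26 (15.4%; Hsd17b7, Sc5d, Scap and Insig1), against 7.24% of all promoters and 11.3% of promoters of genes with at least 50 UMIs in oligodendrocytes. GGGCGG, the core of the Sp1 box, lay in 21 of 26, against 35.9% of all promoters and 68.3% of promoters of genes with at least 50 UMIs in oligodendrocytes. All searches covered both strands, and no marked motif overlapped another in the printed windows. A match describes the letters in the window and is not a binding site.

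The oligodendrocytes of the uninjured nerve carried the highest summed level of the 19 enzymes, 5295 CPM. NFOs had 3612 CPM and OPCs 2043 CPM. After ONC the same sums were 880 CPM in oligodendrocytes, 1049 CPM in NFOs and 918 CPM in OPCs. The ratio of injured to uninjured was therefore 0.166 (0.159 to 0.174) in oligodendrocytes, a 6.02-fold lower level, 0.29 (0.25 to 0.337) in NFOs, and 0.45 (0.359 to 0.559) in OPCs. In the uninjured library the OPC sum was thus 2.59-fold below the oligodendrocyte sum, and in the injured library the sums of all types lay between 880 and 1049 CPM. As means over single barcodes, the injured levels were further apart, at 570 CPM in oligodendrocytes, 935 CPM in NFOs and 732 CPM in OPCs. Of the 293 injured oligodendrocyte barcodes, 84 held over 8000 UMIs and gave 1874 of the 2026 enzyme UMIs. Fewer transcripts per cell and a changed mix of cells within a type cannot be told apart from these sums.

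**Figure D1:**
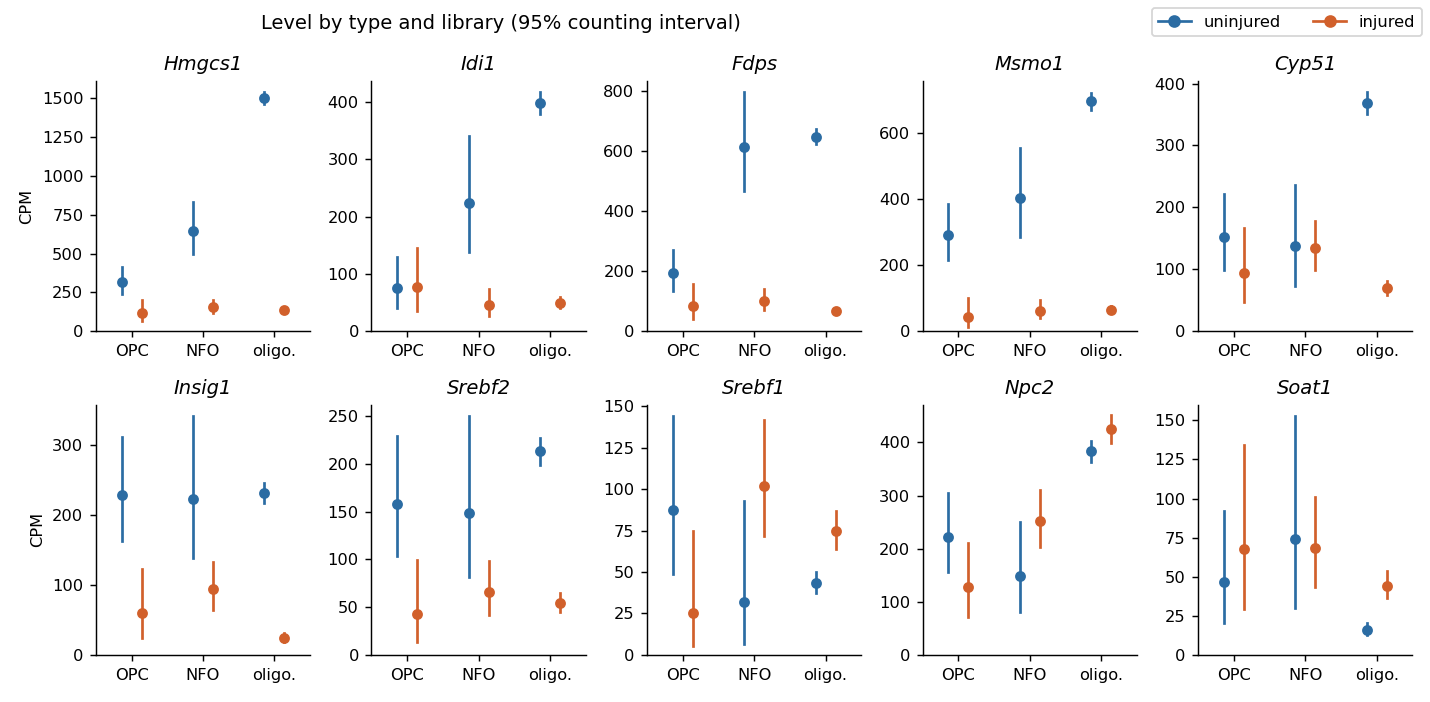
CPM of summed UMIs (linear axis from 0) for 10 of the genes in OPCs, NFOs and oligodendrocytes (oligo.) of the uninjured and injured libraries, with bars for the exact 95% Poisson interval. Within oligodendrocytes, the uninjured point lies above the injured one for the 7 genes from Hmgcs1 (1499 against 137 CPM) to Srebf2, and below it for Srebf1, Npc2 and Soat1.

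Among the mevalonate enzymes, Hmgcs1 (ENSMUSG00000093930, chromosome 13, 119690379 to 119708260), which makes HMG-CoA at the entry to the pathway, had 1499 CPM (1462 to 1537) in uninjured oligodendrocytes. Its level was 137 CPM (123 to 153) in injured oligodendrocytes, a ratio of 0.0916 (0.0815 to 0.103). Counted from the lowest ratio, it had rank 12 of the 8591 genes with at least 50 UMIs over both libraries. Hmgcs1 made up 28.3% of the enzyme UMIs in uninjured and 15.6% in injured oligodendrocytes, and without it the enzyme sum still had a ratio of 0.196 (0.186 to 0.206). Mvd, which decarboxylates mevalonate diphosphate, had 82.9 CPM (74.4 to 92.1) in uninjured and 8.25 CPM (4.97 to 12.9) in injured oligodendrocytes. Fdps, which makes farnesyl diphosphate, had 649 CPM (624 to 674) and 66.5 CPM (56.3 to 77.9). Idi1, the isopentenyl diphosphate isomerase, had 398 CPM (379 to 417) and 49.5 CPM (40.8 to 59.5). The levels of these 4 genes were lower by factors from 8.03 for Idi1 to 10.9 for Hmgcs1. Smaller differences were found for Acat2, the cytosolic thiolase of the first step (73.3 against 18.7 CPM, ratio 0.255), and for the kinases Pmvk (0.391) and Mvk (0.462). Ggps1, which makes the geranylgeranyl group for protein prenylation and so leaves the route to sterols, had 26 CPM (21.4 to 31.4) in uninjured and 30.4 CPM (23.7 to 38.4) in injured oligodendrocytes. Its ratio of 1.17 (0.852 to 1.59) does not exclude no difference, and it was the only enzyme of the 19 that was not lower.

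The sterol enzymes were lower along the whole route. Msmo1, which removes methyl groups from the sterol ring, had 697 CPM (672 to 723) in uninjured and 64.3 CPM (54.3 to 75.5) in injured oligodendrocytes, a ratio of 0.0922 (0.0776 to 0.109). Fdft1, the squalene synthase, had 216 CPM in uninjured and 36.1 CPM in injured oligodendrocytes (ratio 0.167, 0.131 to 0.209). Lss, the lanosterol synthase, had a ratio of 0.177 (0.123 to 0.249). Cyp51, the lanosterol demethylase, had 368 CPM and 69.1 CPM (0.188, 0.158 to 0.221), and Sqle, the squalene epoxidase, had 277 CPM and 54.7 CPM (0.198, 0.163 to 0.238). Sc5d and Dhcr7, late enzymes of the route, both had a ratio of 0.256. Nsdhl stood at 0.307, Hsd17b7 at 0.404 and Ebp, the sterol isomerase, at 0.528. Tm7sf2 had only 42 UMIs in uninjured and 5 UMIs in injured oligodendrocytes, too few for the minimum.

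The regulators did not move as a block. Insig1, which holds the SREBPs in the endoplasmic reticulum and is itself a sterol-regulated gene, had 231 CPM (217 to 246) in uninjured and 23.9 CPM (18 to 31.1) in injured oligodendrocytes, a ratio of 0.103 (0.0773 to 0.136). Insig2, its paralog, had 30.1 CPM (25.1 to 35.9) and 36.5 CPM (29.1 to 45.2), with a ratio of 1.21 (0.907 to 1.61) that does not exclude no difference. Srebf2 had 213 CPM (199 to 227) in uninjured and 54.3 CPM (45.2 to 64.7) in injured oligodendrocytes, a ratio of 0.255 (0.21 to 0.308). Srebf1, which encodes the SREBP better known for fatty acid synthesis, had 43.4 CPM (37.3 to 50.2) and 74.7 CPM (64 to 86.7), a ratio of 1.72 (1.39 to 2.13). Its direction depended on how barcodes were weighted, since the mean of single-barcode CPM gave 0.965. The ratio was 0.105 (0.00254 to 0.644) in barcodes under 2000 UMIs, from 1 injured and 23 uninjured UMIs of the gene. It was 3.1 (1.91 to 4.89) from 2000 to 8000 UMIs, where the median depths were close, and 2.06 (1.57 to 2.73) over 8000. Scap, the escort protein gene, had a ratio of 0.423 (0.319 to 0.555). The protease genes were closer to even, with 0.735 (0.554 to 0.966) for Mbtps1 and 0.925 (0.609 to 1.39) for Mbtps2.

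The transport and storage genes summed to 755 CPM in uninjured and 718 CPM in injured oligodendrocytes (ratio 0.951, 0.895 to 1.01). Within this sum, Tmem97, which encodes an endoplasmic reticulum protein, had 52.1 CPM and 9.99 CPM (ratio 0.192), and Stard4, a cytosolic sterol carrier, had 58.8 CPM and 18.2 CPM (0.31, 0.218 to 0.432). Npc1, which moves cholesterol out of lysosomes, had 245 CPM (230 to 261) and 221 CPM (202 to 241), a ratio of 0.9 (0.808 to 1). The Npc1 ratio changed side with depth, from 0.196 (0.0825 to 0.402) in barcodes under 2000 UMIs to 1.09 (0.82 to 1.43) from 2000 to 8000 and 1.15 (1.01 to 1.32) over 8000. Npc2, its soluble partner, had 383 CPM (364 to 402) and 425 CPM (399 to 452), a ratio of 1.11 (1.02 to 1.2). Soat1, which esterifies cholesterol for storage in droplets, had 16.1 CPM (12.5 to 20.5) and 44.3 CPM (36.1 to 53.8), a ratio of 2.74 (2 to 3.79). In barcodes without a macrophage marker UMI, Soat1 had a ratio of 2.45, Npc1 came to 1 and Npc2 to 1.3. This left out 234 of 293 injured and 74 of 857 uninjured oligodendrocyte barcodes, and no intervals were computed for these 3 values.

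Of the 30 genes in the set that had at least 50 UMIs, 21 were at least 2-fold lower and 1 (Soat1) at least 2-fold higher in injured oligodendrocytes. The share of all 8591 genes was 4.06% lower and 5.98% higher. The genes were selected on this contrast, so nothing is read from their count against that background. With no minimum, 22 of all 31 were at least 2-fold lower and 1 higher, beside 17.9% lower and 16.6% higher among the 15850 genes with a UMI. The median ratio was 0.282 for the 30 genes and 1.03 for all genes. Just inside the 2-fold line lay Mvk (0.462), and just outside it lay Ebp (0.528).

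**Figure D2:**
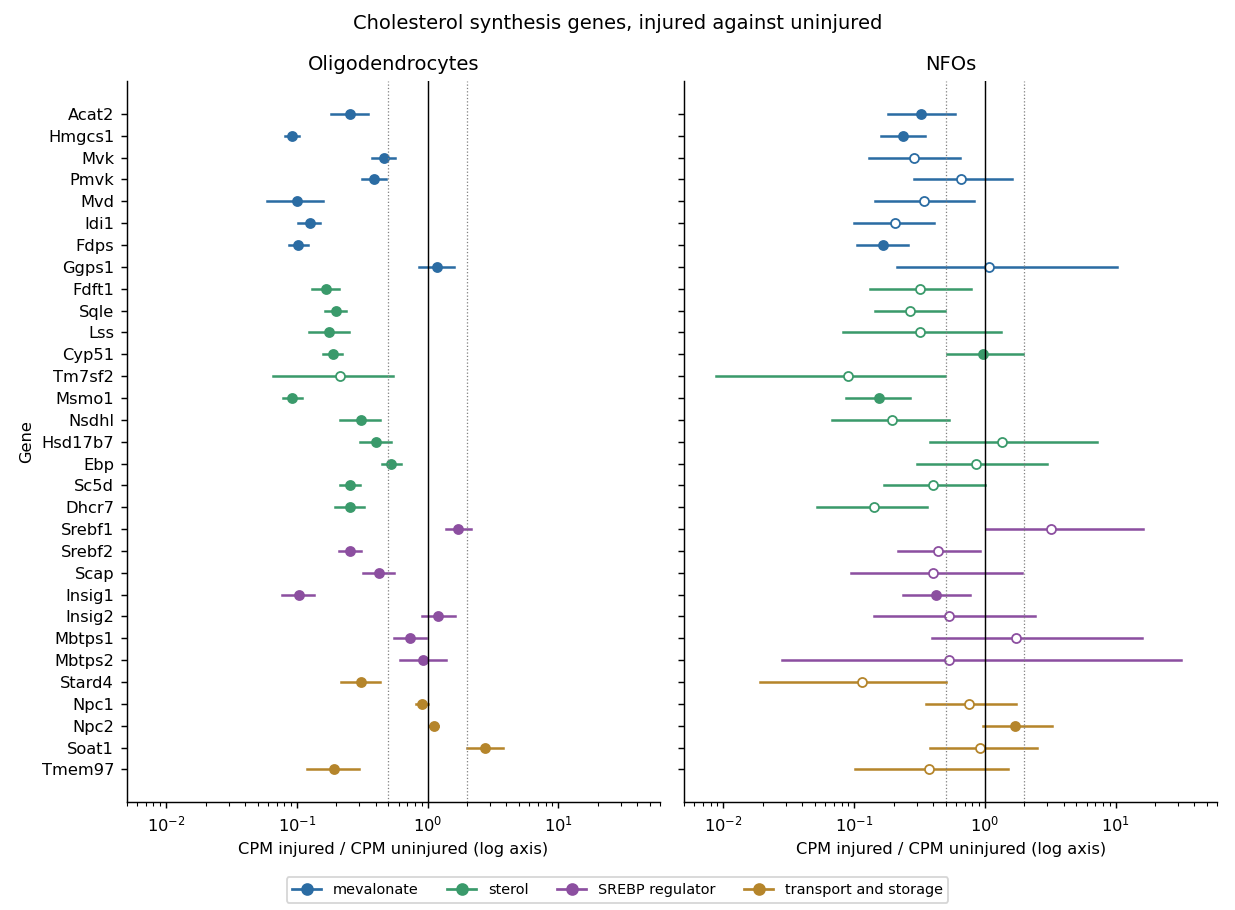
CPM injured over CPM uninjured (log axis) for each of the 31 genes in oligodendrocytes (left) and NFOs (right), coloured by role, with lines for the exact 95% interval. Open points had fewer than 50 UMIs over both libraries, dotted lines mark 2-fold, and in oligodendrocytes the points run from 0.0916 for Hmgcs1 to 2.74 for Soat1.

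Genes near the pathway were read from lists set by role. Of 36 other sterol genes found, 27 had at least 50 UMIs in oligodendrocytes, with 5 at least 2-fold lower, 2 at least 2-fold higher and a median ratio of 0.875. Acly, which makes cytosolic acetyl-CoA from citrate, had 126 CPM in uninjured and 27.4 CPM in injured oligodendrocytes (ratio 0.218, 0.165 to 0.283). Acss2, which makes it from acetate, had a ratio of 0.349 (0.281 to 0.43). Both feed the mevalonate route and fatty acid synthesis. At the other end lay Nceh1, a cholesterol ester hydrolase, with 63.9 CPM and 129 CPM (2.01, 1.7 to 2.39), and the oxysterol-binding Osbpl9 (2.34, 1.67 to 3.29). The isoprenoid branch, which uses farnesyl and geranylgeranyl diphosphate for dolichol, ubiquinone and protein prenylation, had 13 of 15 genes above the minimum. None of them was at least 2-fold lower, Pggt1b was at least 2-fold higher (2.52, 1.54 to 4.17), and the median ratio was 0.962, which is near the background of 4.06% lower and 5.98% higher among all 8591 genes and their median of 1.03. The lowest were Rabggta (0.653) and Dhdds (0.688), and Nus1 stood at 1.63.

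The depth of the barcodes differed between the libraries, so the sums were read again in 3 classes of depth. The median depth of uninjured and injured barcodes was 3454 and 3360 UMIs in the middle class, but 964 and 714 UMIs in the shallowest and 11054 and 22473 UMIs in the deepest, so the outer classes were not matched. Under 2000 UMIs, the 19 enzymes had 3476 CPM in 302 uninjured and 399 CPM in 164 injured oligodendrocyte barcodes (ratio 0.115, 0.0854 to 0.151). From 2000 to 8000 UMIs they had 5337 CPM and 588 CPM (0.11, 0.0894 to 0.134). Over 8000 UMIs they had 5510 CPM in 203 and 936 CPM in 84 barcodes (0.17, 0.162 to 0.178). The enzyme level was thus lower in the injured library in each class, the middle one included. The macrophage markers in injured oligodendrocytes were 2959 CPM in the shallowest and 83.5 CPM in the deepest of these classes. Among barcodes with at least 0.5% Malat1 the enzyme ratio was 0.17 (0.162 to 0.178), and under 0.5% it was 0.124 (0.0931 to 0.164). In the 133 injured barcodes poor in Malat1, 4 of the 19 enzymes (Tm7sf2, Msmo1, Nsdhl and Dhcr7) had 0 UMIs.

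**Figure D3:**
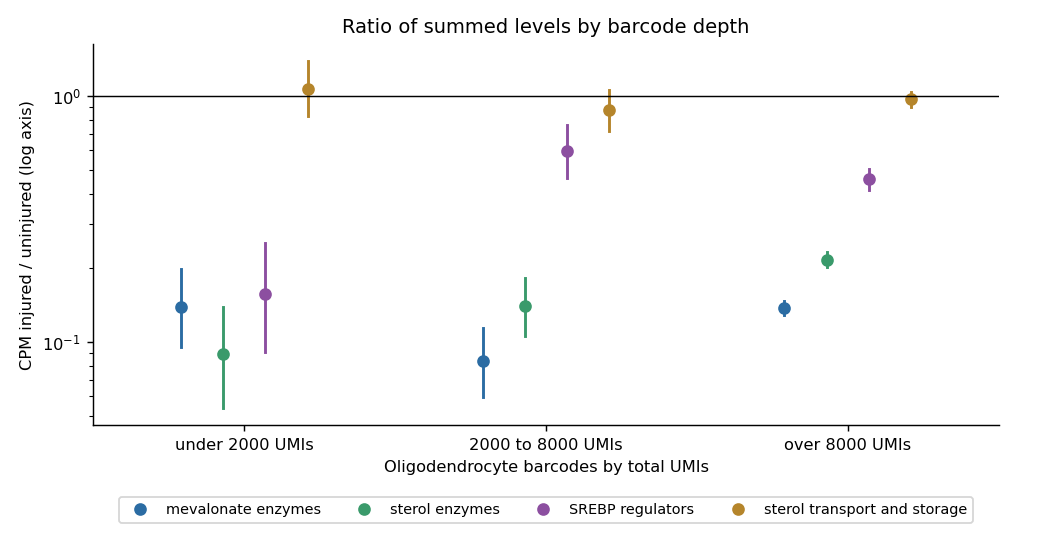
CPM injured over CPM uninjured (log axis) of 4 gene groups in oligodendrocyte barcodes of 3 depth classes, with lines for the exact 95% interval. Mevalonate and sterol enzymes lie between 0.0839 and 0.216 at each depth, SREBP regulators between 0.156 and 0.597, and transport and storage genes near 1.

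The enzyme level was also read in single barcodes. Among the 555 uninjured oligodendrocyte barcodes with at least 2000 UMIs, the enzymes had a median of 4588 CPM, with the middle of the distribution from 2981 to 7030 CPM (quartiles) and the highest at 19339 CPM. Among the 129 injured ones the median was 723 CPM, the quartiles were 525 and 1008 CPM, and the highest was 3353 CPM. No injured barcode (0 of 129) lay above the uninjured median, and 12 lay above the uninjured 5th percentile of 1404 CPM. The distributions thus overlapped at their edges. In NFOs of at least 2000 UMIs the medians were 3556 CPM in 14 uninjured and 1007 CPM in 31 injured barcodes.

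**Figure D4:**
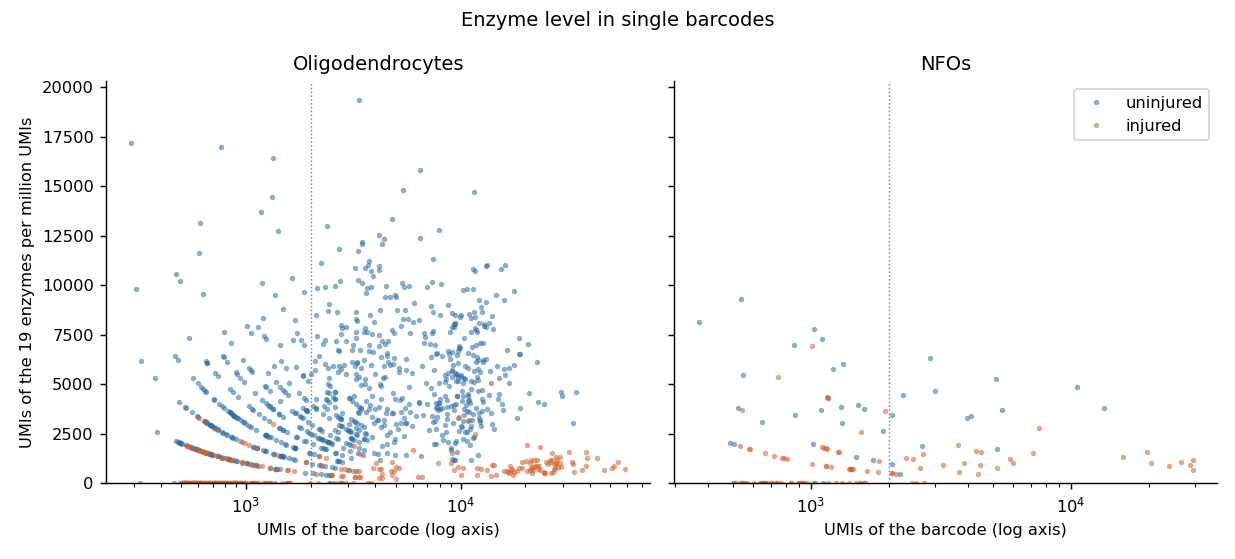
CPM of the 19 enzymes (linear axis from 0) against the total UMIs of each barcode (log axis), for oligodendrocytes (left) and NFOs (right), 1 point per barcode. To the right of the dotted line at 2000 UMIs, no injured oligodendrocyte lies above the uninjured median of 4588 CPM; the curved rows of points at low depth are barcodes with the same small number of enzyme UMIs.

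Detection of Hmgcs1 was compared at 1 depth by thinning each barcode to 500 UMIs. It was found in 43.8% (40.4 to 47.2) of 838 uninjured oligodendrocytes and in 4.1% (2.13 to 7.04) of 293 injured ones, against 77.8% and 34.8% without thinning. In NFOs the thinned shares were 19% (8.6 to 34.1) of 42 and 9% (4.2 to 16.4) of 100. Npc2 went the other way in oligodendrocytes, with 14.2% (11.9 to 16.7) uninjured and 23.5% (18.8 to 28.8) injured. All 3 deposited types make cholesterol, so none could serve as a type that should lack these RNAs, and the part of free RNA in these shares was not tested. Npc2 is also a gene of macrophages. Its CPM ratio was 2.47 (1.76 to 3.47) under 2000 UMIs, 0.734 (0.522 to 1.01) from 2000 to 8000 and 1.01 (0.918 to 1.1) over 8000, beside the macrophage marker levels given above.

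NFOs held fewer UMIs than oligodendrocytes, with 94130 in the uninjured and 351851 in the injured class. Of the 100 injured NFO barcodes, 8 held over 8000 UMIs, with up to 29396 against a median of 1258. The summed levels of injured NFOs therefore lean on these few deep barcodes. Their enzyme level was 1049 CPM as a sum and 935 CPM as the mean over single barcodes, beside 3612 and 3385 CPM in uninjured NFOs. Msmo1 had 404 CPM (286 to 554) in uninjured and 62.5 CPM (39.2 to 94.7) in injured NFOs, and its ratio of 0.155 (0.0873 to 0.269) was the lowest of 1695 genes with at least 50 UMIs. Fdps followed with rank 2, at 616 CPM (468 to 797) and 102 CPM (71.7 to 142). Hmgcs1 had 648 CPM (496 to 832) and 153 CPM (115 to 200), a ratio of 0.237 (0.161 to 0.347), and Acat2 had a ratio of 0.326 (0.181 to 0.592). In contrast, Cyp51 had 138 CPM (73.5 to 236) in uninjured and 134 CPM (98.1 to 178) in injured NFOs, a ratio of 0.967 (0.515 to 1.95) whose interval spans lower and higher levels. Srebf1 had 3 UMIs in uninjured and 36 UMIs in injured NFOs (ratio 3.21, 1.01 to 16.3). Of the 7 genes above the minimum, 5 were at least 2-fold lower and 0 higher, against 4.01% and 13.3% of all 1695 genes, from which nothing is read, since the genes were chosen with results of these data known. With no minimum, 19 of the 31 genes were at least 2-fold lower and 1, Srebf1, at least 2-fold higher, beside 20.2% lower and 31.2% higher among the 12365 genes with a UMI. The class itself differed between the libraries, since its OPC markers had a ratio of 0.472, its NFO markers of 1.5 and its macrophage markers were at 21.2 and 657 CPM, and the part of these differences was not tested.

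The injured to uninjured ratio was then compared between NFOs and oligodendrocytes. For the enzyme sum, the NFO ratio was 1.75 times (1.5 to 2.04) the oligodendrocyte ratio, with a counting interval computed on the log scale. Cyp51 differed most, with a ratio of ratios of 5.15 (2.73 to 9.73). Mvd (3.42, 1.37 to 8.54), Hmgcs1 (2.59, 1.76 to 3.79) and Fdps (1.62, 1.04 to 2.53) were also closer to even in NFOs. In NFOs, Mvd was below the minimum, with 11 uninjured UMIs, 5 of them in 1 barcode, and 14 injured UMIs. For Fdps, 14 of the 58 uninjured NFO UMIs lay in 1 barcode. The intervals cover counting error only and not such clustering. Insig1 gave 4.07 (2.21 to 7.49), but its 33 UMIs in injured NFOs lay in 8 of 100 barcodes, with 11 in 1 barcode, and the NFO ratio of 0.42 became 0.0247 in barcodes under 8000 UMIs. Soat1 went the other way (0.334, 0.136 to 0.819), with 74.4 CPM (29.9 to 153) in uninjured and 68.2 CPM (43.7 to 101) in injured NFOs. These Soat1 levels came from 7 uninjured and 24 injured UMIs, with 7 of the 24 in 1 barcode. For the other 25 genes the interval included 1.

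The types were also compared within each library. In the uninjured nerve the enzyme sum of NFOs was 0.682 (0.611 to 0.759) of that of oligodendrocytes, with Hmgcs1 at 0.432 (0.33 to 0.556), Cyp51 at 0.375 (0.199 to 0.644) and Ebp at 0.363 (0.117 to 0.851). Of the uninjured barcodes, 63.6% of NFOs and 5.6% of oligodendrocytes held under 0.5% of their UMIs from Malat1. The enzyme sum was 3950 CPM (3499 to 4444) in those oligodendrocytes, beside 3612 CPM (3238 to 4017) in all uninjured NFOs. The part of Malat1-poor barcodes in the difference between the types was not tested. Acat2 was higher in NFOs, at 244 CPM (155 to 367) against 73.3 CPM (65.3 to 82), a ratio of 3.34 (2.08 to 5.1), and so was Soat1 (4.61, 1.78 to 10). Of 30 genes above the minimum, 8 were at least 2-fold lower and 3 at least 2-fold higher in NFOs, beside 24.0% lower and 17.7% higher among all 7651 genes. These counts lie near or below those shares, and nothing is read from them. In the injured nerve the enzyme sum of NFOs was 1.19 (1.06 to 1.33) of that of oligodendrocytes, and 2.09 in barcodes under 8000 UMIs. Of the injured barcodes, 77% of NFOs and 45.4% of oligodendrocytes held under 0.5% Malat1. Those oligodendrocytes had an enzyme sum of 492 CPM (378 to 629), beside 1049 CPM (944 to 1161) in all injured NFOs. Acat2 was again higher in NFOs, at 79.6 CPM (52.9 to 115) against 18.7 CPM (13.5 to 25.2), a ratio of 4.26 (2.55 to 7.02). Cyp51 stood at 1.93 (1.37 to 2.69), and Npc1 was lower in NFOs, at 0.361 (0.237 to 0.528). Of 24 genes above the minimum, 1 (Npc1) was at least 2-fold lower and 2 (Acat2 and Insig1) at least 2-fold higher, against 19.4% and 13.5% of all 6563 genes. These counts lie below those shares and are not read as a trait of the set. Of the 19 enzymes, 1 had an interval below 1 and 4 above 1 in the injured nerve. In the uninjured nerve these numbers were 7 and 3. The UMIs per class differed, with 94130 in uninjured and 351851 in injured NFOs. Oligodendrocytes had 4149375 UMIs in the uninjured and 2302349 UMIs in the injured library. The share of all genes with such intervals was not computed, and nothing is read from these numbers.

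OPCs of the uninjured nerve had 0.386 (0.346 to 0.429) of the enzyme level of oligodendrocytes. The mevalonate enzymes were further apart, at 0.283 (0.239 to 0.334), than the sterol enzymes, at 0.517 (0.448 to 0.593), and the lowest single genes were Ebp (0.159, 0.0433 to 0.41) and Idi1 (0.191, 0.101 to 0.327). The SREBP regulators were not lower as a sum (1.2, 1 to 1.43). Mbtps1 was at 123 CPM (75.9 to 187) in OPCs and 44.3 CPM (38.2 to 51.2) in oligodendrocytes, a ratio of 2.76 (1.67 to 4.35), and Srebf1 at 2.02 (1.11 to 3.42). Insig1 had about the same level in all 3 uninjured types, with 228 CPM (162 to 311) in OPCs, 223 CPM (138 to 341) in NFOs and 231 CPM (217 to 246) in oligodendrocytes. Injured OPCs were 17 barcodes, which leaves wide intervals for single genes. Msmo1 had 292 CPM (217 to 385) in uninjured and 42.5 CPM (13.8 to 99.2) in injured OPCs.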

How the data were processed

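scRNA-seq was measured in 1 injured and 1 uninjured optic nerve library. The authors made the libraries with the Chromium v2 kit, and per the labels used bcl2fastq 2.17.1.14, Cell Ranger 1.3 (mm10) and Seurat 4.0.3. They kept cells with at least 200 genes, at most 20% mitochondrial RNA and at most 150000 UMIs, drew equal cell numbers per library, and deposited for the oligodendrocyte lineage a natural log value, ln of 1 plus 10000 times UMIs over total UMIs, with a type per barcode. Groups follow the sample titles.

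To recover UMIs, the logarithm was undone and the lowest value above 0 in a barcode was taken as 1 UMI. All values were then whole within 0.001 in 100% of barcodes (4414834 UMIs uninjured, 2771797 UMIs injured). The table of both libraries held the same values as the single tables and was not used. Counts were summed per type and given as CPM with exact Poisson intervals, shares with exact binomial intervals, and ratios with exact conditional intervals, all at 95% and for counting error only. No test was run, since each condition has 1 library. Counts past 2-fold used genes with at least 50 UMIs over both classes. A class at 0 UMIs was set to a floor of 3 UMIs for a bound. The members and lists were chosen with earlier results of these data known. All 31 members are named, and of the other lists the 2 genes of highest and the 2 of lowest ratio in oligodendrocytes. Of 38 names of other sterol genes, 36 were matched. Coordinates are GENCODE vM21 (GRCm38, counted from 1). Of the 26 RefSeq promoters, the first 20 bases after the start occurred in a GENCODE transcript of the gene in 21. Python 3.11.15, numpy 2.4.6, scipy 1.17.1, pandas 2.3.3 and scanpy 1.11.5 (Scrublet) were used. The ratio intervals were checked on counts simulated as independent Poisson draws. Such draws hold no clustering of UMIs in barcodes, so the check does not cover it. Alternatives changed the barcode filters, depth, weighting, scaling, minimum and fold, and leaving out barcodes with macrophage markers was added after seeing the data. Scrublet marked 12 of 959 uninjured and 3 of 410 injured barcodes as doublets, which were kept except in 1 alternative. Genes outside the listed groups were not analysed here.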

Additional observations from a re-analysis of the deposited data

How the results depend on the processing

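Each condition had 1 library. No paired analysis was possible because there is no second replicate, and none could be left out. In oligodendrocytes, the injured to uninjured ratio of the enzyme sum (0.166) became 0.101 in barcodes under 8000 UMIs, 0.11 from 2000 to 8000 UMIs, 0.125 with each barcode weighted equally and 0.197 without barcodes holding a macrophage marker UMI, an alternative added after seeing the data. In NFOs it was 0.29 and became 0.359 without those barcodes. The barcodes left out for macrophage markers were 234 of 293 injured and 74 of 857 uninjured oligodendrocytes. In NFOs they were 81 of 100 injured and 2 of 44 uninjured barcodes. The NFO to oligodendrocyte ratio in the injured library (1.19) became 2.09 under 8000 UMIs, 1.94 from 2000 to 8000 UMIs and 1.64 with equal weights. These sums stayed on the same side of 1 under the alternatives run. The count of NFO genes past 2-fold (5 of 7) was 2 under 8000 UMIs, with at least 0.5% Malat1, with the stricter filter of 500 genes and 10% mitochondrial RNA, and without macrophage marker barcodes. It was 3 without the barcode with most member UMIs in each class, 14 with a minimum of 20 UMIs, and 0 from 2000 to 8000 UMIs or with a minimum of 200 UMIs, where no member reached the minimum. The count in oligodendrocytes (22) ranged from 21 to 25, but single ratios moved beyond their counting interval, in 22 of 31 genes with equal weights, 17 of 28 from 2000 to 8000 UMIs, 17 of 30 under 8000 UMIs and 11 of 31 without macrophage marker barcodes. Hmgcs1 (0.0916) came to 0.0522 from 2000 to 8000 UMIs, Insig1 (0.103) to 0.0721 with equal weights, and Npc1 (0.9, an interval that reaches 1) to 0.511 with equal weights and 1.09 from 2000 to 8000 UMIs. Among genes in oligodendrocytes whose interval excluded 1, Srebf1 turned to 0.965 with equal weights. From 2000 to 8000 UMIs, Mbtps1 turned to 1.4 and Npc2 to 0.734. Counting genes whatever their interval, 29 of 31 kept their side of 1 with equal weights and 23 of 28 from 2000 to 8000 UMIs. The cause was not tested. With 1 library per condition the spread between nerves was not measured, and the intervals for 44 uninjured NFOs and 17 injured OPCs are wide.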
